A study of Mus musculus with 60 samples.

Results

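Decr2, Mut, Ppil1, Gnptg, Pla2g7 and Slc22a3 are 6 genes of the chromosome that carries Glo1, out of 21999 genes in the deposited tables. They were chosen by measured values, namely a difference between Glo1 knockout (KO) and wild-type (WT) mice in these libraries, so their KO against WT values are a description. Where a KO against WT value is said to be called or not called below, this repeats the choice and supports nothing. The same holds where KO and WT groups are said to lie apart or to overlap. The share of all genes whose groups lie apart was not computed for any comparison. The data are 60 poly(A) RNA libraries of 20 mice, 1 each from the hippocampus, the striatum and the prefrontal cortex. From 8 to 12 weeks of age the animals were fed either normal chow, in which vitamin B6 (VB6) was present at 1.4 mg per 100 g, or a lacking diet in which it was present at 5 µg per 100 g. The 4 groups were WT on the normal diet, WT on the lacking diet, KO on the normal diet and KO on the lacking diet, with 5 mice each and 1 library per mouse and region. The Glo1 allele, the strain background and the sex of the mice were not given in the sources used here.

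Glo1 encodes glyoxalase I, which clears methylglyoxal, a reactive by-product of glycolysis. The 6 genes belong to separate parts of cell metabolism and RNA processing. Decr2 encodes the peroxisomal 2,4-dienoyl-CoA reductase, which takes part in the breakdown of polyunsaturated fatty acids, and Mut the mitochondrial methylmalonyl-CoA mutase, a vitamin B12-dependent enzyme at the end of propionate breakdown. Ppil1 encodes a cyclophilin of the spliceosome. Gnptg encodes the gamma subunit of the phosphotransferase that starts the mannose 6-phosphate tag by which enzymes are sorted to lysosomes. Pla2g7 encodes the acetylhydrolase that inactivates platelet-activating factor and oxidised phospholipids, and Slc22a3 the organic cation transporter OCT3, a low-affinity carrier that takes up monoamines.

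Library totals were between 7640047 and 13928265 counts, and 3 counts corresponded to 0.215 to 0.393 CPM (counts scaled to a common library total), a limit that covers counting error only. Glo1 had 0 to 10 counts in the 30 KO libraries and 299 to 734 in the 30 WT libraries, as labelled. All KO libraries carried batch number 1 and all WT libraries batch number 2 in the labels, so genotype and batch cannot be told apart in any KO against WT value below. Markers matched the labelled regions: the summed level of 6 cortical excitatory genes was 849 to 946 CPM in the prefrontal cortex and 208 to 320 CPM elsewhere, and that of 6 striatal medium spiny genes was 4951 to 6124 CPM in the striatum and at most 143 CPM elsewhere. In the hippocampus 7 of 20 libraries stood apart by Ttr, a choroid plexus transcript, with 347 to 1460 CPM against 2.60 to 117 CPM in the others. They came from all 4 groups (2 WT normal, 2 WT lacking, 2 KO normal and 1 KO lacking), and hippocampal results below are also given without them where they differ.

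Across the 6 comparisons of KO with WT (3 regions on 2 diets), Decr2, Ppil1, Gnptg and Pla2g7 were lower in KO mice in 6 of 6, and Mut was higher in 6 of 6, although in the hippocampus on the normal diet its sign turned without the libraries high in Ttr. On both diets Slc22a3 was higher in KO striatum and lower in KO prefrontal cortex; in the hippocampus it did not pass the filter on low counts. All 6 genes passed the filter in the other regions, which gave 34 values in all. A gene was called when its p-value, adjusted over all genes of the comparison by the Benjamini-Hochberg (BH) method, was under 0.05 in edgeR's quasi-likelihood test. In the prefrontal cortex 4 of 6 members were called on the normal diet, where 0.121 percent of all genes tested were called, and 5 of 6 on the lacking diet, against 0.234 percent. In the striatum 4 of 6 were called on the normal diet, beside 0.0601 percent of all genes, and 5 of 6 on the lacking diet, beside 0.128 percent. The hippocampus had 1 of 5 called on each diet, Decr2 on the normal diet (0.0299 percent of all genes) and Gnptg on the lacking diet (0.0672 percent). Because the rule used these comparisons, nothing is read from these counts. With the RNA integrity number as a covariate only Decr2 was called in the striatum on the lacking diet, while the log2 fold changes there were -0.79 for Decr2, 0.55 for Mut, -1.07 for Ppil1, -0.62 for Gnptg and 0.85 for Slc22a3. Of the genes in 9 lists of cell type markers, 0 were called in any of the 6 comparisons. Some summed levels nevertheless lay lower in KO libraries, such as the 6 microglial markers in the prefrontal cortex (median 225 against 260.4 CPM) and the 6 oligodendrocyte markers in the hippocampus (4034 against 5382 CPM); their part in the members' values was not tested. The called value nearest to the threshold was that of Mut in the prefrontal cortex on the lacking diet (adjusted p 0.0382), and the nearest one not called was that of Decr2 in the hippocampus on the lacking diet (adjusted p 0.0675; edgeR, BH).

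**Figure D1:**
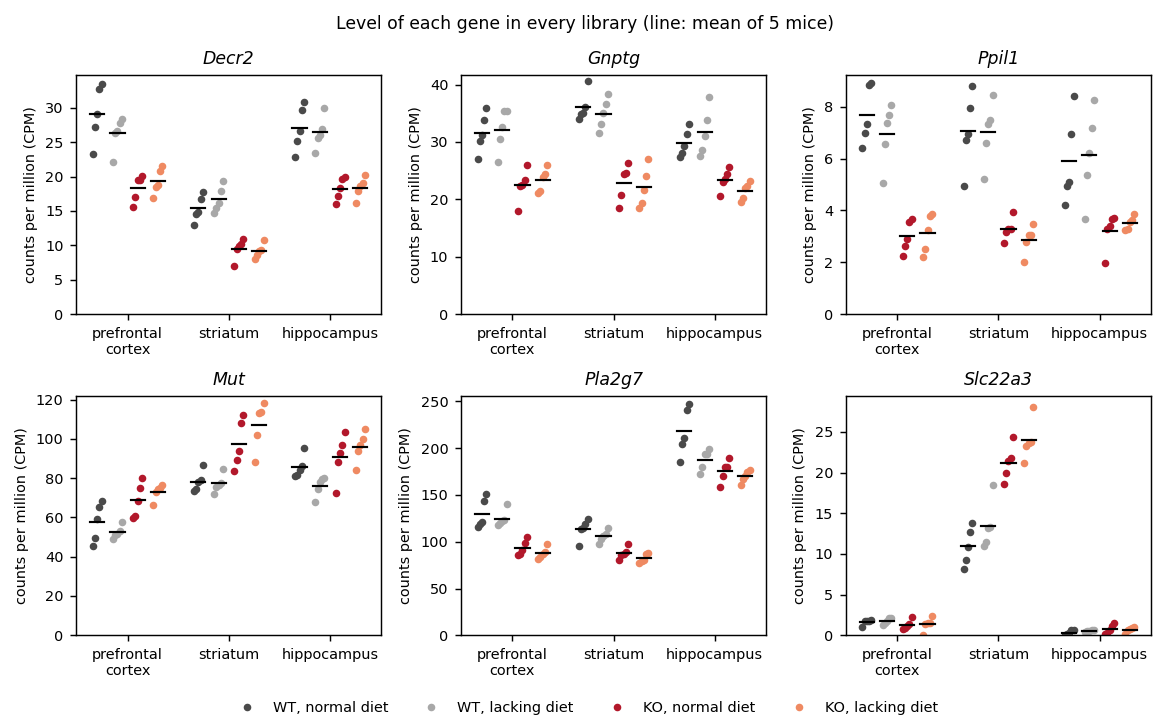
Level of each of the 6 genes in every library, in CPM, by region; each point is 1 mouse, the colour gives genotype and diet, and the line is the mean of 5 mice. Decr2 and Gnptg of KO mice lay below those of WT mice in all 3 regions, and Slc22a3 was highest in the striatum, where KO libraries lay at 18.6 CPM or above and WT libraries at 18.4 CPM or below.

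Ppil1 had the lowest KO level relative to WT among the 6 genes, with KO means between 38.9 and 57.3 percent of the WT means. It lies on chromosome 17 at 29250803 to 29264186 on the minus strand (GRCm38, the same sequence as mm10; GENCODE annotation), 1.32 Mb before Glo1. It was a low-count gene, with 44 to 100 counts in WT libraries and 19 to 52 in KO libraries. In the prefrontal cortex on the normal diet the WT libraries had 6.42, 6.99, 7.35, 8.84 and 8.899 CPM and the KO libraries 2.23, 2.63, 2.91, 3.55 and 3.66 CPM. On the lacking diet WT libraries had 5.05, 6.57, 7.36, 7.697 and 8.06 CPM and KO libraries 2.22, 2.51, 3.26, 3.79 and 3.87 CPM. Every KO library was below every WT library on both diets, with log2 fold changes of KO against WT of -1.38 (SE 0.185) and -1.18 (SE 0.186).

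The striatum gave a like picture for Ppil1. There WT libraries on the normal diet had 4.94, 6.74, 6.95, 7.96 and 8.82 CPM and KO libraries 2.73, 3.18, 3.27, 3.29 and 3.94 CPM, and on the lacking diet WT libraries had 5.21, 6.599, 7.34, 7.498 and 8.47 CPM and KO libraries 2.02, 2.77, 3.04, 3.04 and 3.46 CPM. Again the groups did not overlap, and the log2 fold changes were -1.08 (SE 0.183) and -1.24 (SE 0.183). In the hippocampus on the normal diet WT libraries had 4.205, 4.93, 5.098, 6.93 and 8.42 CPM and KO libraries 1.99, 3.303, 3.38, 3.69 and 3.72 CPM. On the lacking diet WT libraries had 3.68, 5.39, 6.201, 7.18 and 8.27 CPM and KO libraries 3.25, 3.303, 3.56, 3.63 and 3.86 CPM. The hippocampal groups on the lacking diet were the only ones of the 6 pairs that overlapped, through the lowest WT library, and Ppil1 was not called in the hippocampus on either diet (-0.90 (SE 0.226) and -0.76 (SE 0.219)). Without the 7 libraries high in Ttr these log2 values were -0.65 and -0.93. Of the 75-base stretches of Ppil1, 4.45 percent also occurred in another annotated transcript.

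Gnptg ran alongside Ppil1: over the 12 group means the Pearson r of their log2 CPM was 0.958, the highest among the 15 pairs of members. This is a description over groups that share libraries and that were chosen on the same KO against WT differences. Gnptg lies at 25233331 to 25240124 on the minus strand of chromosome 17, 5.34 Mb before Glo1. In the striatum on the normal diet WT libraries had 34.02, 34.8, 35.04, 36.1 and 40.6 CPM and KO libraries 18.5, 20.8, 24.4, 24.7 and 26.3 CPM, and on the lacking diet WT libraries had 31.5, 33.1, 35.02, 36.7 and 38.3 CPM and KO libraries 18.4, 19.3, 21.6, 24.1 and 27.1 CPM. All KO libraries were below all WT libraries, with log2 fold changes of -0.63 (SE 0.0973) and -0.61 (SE 0.0967). Prefrontal WT libraries had 27.1, 30.2, 31.2, 33.8 and 35.9 CPM and KO libraries 18.1, 22.3, 22.5, 23.4 and 25.9 CPM on the normal diet. On the lacking diet there WT libraries had 26.5, 30.6, 32.6, 35.4 and 35.4 CPM and KO libraries 21.1, 21.5, 23.8, 24.4 and 25.9 CPM. The gap between genotypes was narrower than in the striatum, at -0.50 (SE 0.0966) and -0.49 (SE 0.0965); the difference between regions was not tested.

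Hippocampal Gnptg was at 27.3, 28.04, 29.3, 31.3 and 33.2 CPM in WT and 20.7, 22.98, 23.5, 24.4 and 25.6 CPM in KO libraries on the normal diet, and at 27.6, 28.6, 30.99, 33.8 and 37.8 CPM in WT and 19.6, 20.2, 21.9, 22.3 and 23.3 CPM in KO libraries on the lacking diet. The groups did not overlap, so that Gnptg of KO mice lay below that of WT mice in 6 of 6 pairs of groups, and the log2 fold changes were -0.38 (SE 0.0951) and -0.53 (SE 0.0943). On the lacking diet Gnptg was no longer called without the libraries high in Ttr (-0.43, SE 0.112), with fewer libraries in that fit. The level of Gnptg is uncertain, since 49.5 percent of its exonic bases overlap exons of Unkl on the opposite strand, 46.2 percent of its 75-base stretches occur there too, and the strand used in counting was not given. Unkl itself had 4820 counts over all libraries against 17900 for Gnptg, and its KO against WT log2 values were -0.21, 0.01 and 0.12 on the normal diet and -0.15, -0.32 and -0.19 on the lacking diet, in the prefrontal cortex, striatum and hippocampus.

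The promoters of Ppil1 and Gnptg are shown because the levels of these genes varied together, and that of Decr2 because it was lower in KO mice in the same comparisons. Pla2g7 was lower in those comparisons too, but its window is not printed. Each is 300 bases of RefSeq's GRCm38.p6 assembly, from 250 before the annotated start to 50 after it, read 5′ to 3′ on the minus strand: Ppil1 at chr17:29263922-29264221, Gnptg at chr17:25240091-25240390 and Decr2 at chr17:26090115-26090414. Capitals mark matches to 4 motifs, searched on both strands. These were the GC box with the letters GGGCGG, the ETS motif with the letters CCGGAAG, the CCAAT box, named by its letters, and the extended E-box with the letters TCACGTGA, whose middle letters are the E-box CACGTG.
Ppil1: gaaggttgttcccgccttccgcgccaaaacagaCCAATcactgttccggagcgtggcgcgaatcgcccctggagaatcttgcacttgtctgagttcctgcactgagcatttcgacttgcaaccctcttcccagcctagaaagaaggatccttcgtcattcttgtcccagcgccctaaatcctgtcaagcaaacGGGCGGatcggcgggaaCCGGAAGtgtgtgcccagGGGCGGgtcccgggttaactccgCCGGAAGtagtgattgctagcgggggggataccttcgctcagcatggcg
Gnptg: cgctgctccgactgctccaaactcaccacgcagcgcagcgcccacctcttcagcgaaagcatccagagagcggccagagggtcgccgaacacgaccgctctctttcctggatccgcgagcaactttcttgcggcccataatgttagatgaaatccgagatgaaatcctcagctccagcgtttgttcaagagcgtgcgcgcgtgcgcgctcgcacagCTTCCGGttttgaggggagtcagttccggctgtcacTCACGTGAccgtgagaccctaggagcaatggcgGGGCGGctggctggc
Decr2: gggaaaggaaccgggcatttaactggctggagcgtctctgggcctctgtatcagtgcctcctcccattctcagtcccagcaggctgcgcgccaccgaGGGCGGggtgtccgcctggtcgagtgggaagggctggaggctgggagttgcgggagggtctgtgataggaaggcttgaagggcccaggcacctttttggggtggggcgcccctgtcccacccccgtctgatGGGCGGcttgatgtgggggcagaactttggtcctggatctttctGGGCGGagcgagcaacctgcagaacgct
The Ppil1 window held 2 GC boxes, 2 ETS motifs and 1 CCAAT box. That of Gnptg held 1 GC box, 1 ETS motif, on the opposite strand, and 1 extended E-box, and that of Decr2 held 3 GC boxes and none of the other motifs. Among 32851 promoter windows of the same length, 35.7 percent held a GC box, 37.4 percent CCAAT, 8.86 percent the ETS motif, 7.15 percent the E-box and 0.974 percent the extended E-box. The GC box was thus the only one of these motifs in all 3 windows. The window of Glo1 held 3 GC boxes and 1 CCAAT box. Ppil1, Gnptg and Decr2 had 58.7, 61.0 and 64.3 percent G or C in these windows, while the window of Slc22a3 had 52.0 percent and held none of these motifs and that of Pla2g7 held 1 GC box. These matches describe the letters only and say nothing of binding.

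Decr2 lies between Gnptg and Ppil1, at 26081208 to 26090337 on the minus strand and 4.49 Mb before Glo1, and none of its 75-base stretches occurred in another annotated transcript. In the prefrontal cortex on the normal diet WT libraries had 23.2, 27.2, 29.05, 32.8 and 33.5 CPM and KO libraries 15.6, 17.02, 19.5, 19.5 and 20.04 CPM. On the lacking diet WT libraries had 22.2, 26.4, 26.6, 27.8 and 28.4 CPM and KO libraries 16.8, 18.4, 18.8, 20.8 and 21.6 CPM. The highest KO library was below the lowest WT library on each diet, although by less than 1 CPM on the lacking diet, and the log2 fold changes were -0.67 (SE 0.102) and -0.48 (SE 0.102). In the striatum, where Decr2 was at its lowest, WT libraries had 12.97, 14.6, 14.9, 16.8 and 17.7 CPM and KO libraries 6.94, 9.55, 9.87, 10.1 and 10.96 CPM on the normal diet. WT libraries had 14.7, 15.4, 16.2, 17.9 and 19.3 CPM and KO libraries 8.002, 8.67, 9.12, 9.27 and 10.8 CPM on the lacking diet. These groups were well apart, with log2 fold changes of -0.67 (SE 0.118) and -0.80 (SE 0.116).

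In the hippocampus Decr2 was at 22.9, 25.2, 26.6, 29.7 and 30.8 CPM in WT and 15.97, 17.1, 18.3, 19.7 and 19.9 CPM in KO libraries on the normal diet. It was at 23.4, 25.7, 26.1, 26.9 and 29.98 CPM in WT and 16.2, 17.9, 18.6, 19.1 and 20.3 CPM in KO libraries on the lacking diet. The log2 fold changes were -0.60 (SE 0.103) and -0.49 (SE 0.102), and again no KO library reached a WT library. Decr2 of KO mice thus lay below that of WT mice in 6 of 6 pairs of groups, at 55.0 to 73.4 percent of the WT mean. Without the libraries high in Ttr, Decr2 was not called in the hippocampus on the normal diet (-0.56, SE 0.145).

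Mut, at 40934685 to 40961988 on the plus strand and 10.3 Mb after Glo1, was the one gene of the 6 that was higher in KO mice in the 6 comparisons, with KO means of 106 to 139 percent of the WT means. In the striatum on the lacking diet WT libraries had 72.1, 75.5, 76.4, 77.7 and 84.7 CPM and KO libraries 88.05, 102, 113, 114 and 118 CPM, and on the normal diet WT libraries had 73.2, 74.3, 77.9, 78.98 and 86.5 CPM and KO libraries 83.9, 89.3, 93.98, 108 and 112 CPM. The groups were apart on the lacking diet, with a log2 fold change of 0.53 (SE 0.0964), and overlapped on the normal diet, where Mut was not called (0.34 (SE 0.0969)). In the prefrontal cortex on the lacking diet WT libraries had 48.99, 51.1, 51.6, 53.2 and 57.7 CPM and KO libraries 66.1, 72.9, 74.4, 75.02 and 76.6 CPM, again apart. On the normal diet, WT libraries had 45.2, 49.7, 59.1, 65.4 and 68.3 CPM and KO libraries 59.9, 60.5, 68.6, 74.7 and 80.2 CPM, which overlapped. The log2 fold changes in the prefrontal cortex were 0.45 (SE 0.0971) on the lacking diet and 0.25 (SE 0.0966), not called, on the normal diet.

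In the hippocampus on the lacking diet WT libraries had 68.1, 74.7, 78.2, 79.7 and 80.3 CPM of Mut and KO libraries 83.9, 93.8, 97.1, 99.9 and 105 CPM. On the normal diet WT libraries had 81.01, 81.7, 84.1, 86.1 and 95.5 CPM and KO libraries 72.5, 88.1, 92.8, 96.8 and 104 CPM. KO libraries lay above WT libraries on the lacking diet (0.37 (SE 0.0837), not called) and around them on the normal diet (0.06 (SE 0.0839)), where the sign turned to -0.03 without the libraries high in Ttr. The Mut groups were therefore apart on the lacking diet in all 3 regions and overlapped on the normal diet in all 3, but the interaction of genotype and diet was not called in any region. Of its 75-base stretches 0.593 percent were shared, with Cenpq, which overlaps it on the opposite strand.

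Pla2g7 lies at 43568098 to 43612201 on the plus strand, 12.9 Mb after Glo1, and was lower in KO mice in the 6 comparisons. In the prefrontal cortex, WT libraries on the normal diet had 116, 119, 121, 143 and 151 CPM and KO libraries 86.3, 86.4, 90.7, 98.8 and 105 CPM, and on the lacking diet WT libraries had 118, 119.9, 122, 124 and 140.3 CPM and KO libraries 81.6, 84.05, 86.8, 88.9 and 97.8 CPM. Neither pair of groups overlapped, and the log2 fold changes were -0.48 (SE 0.0797) and -0.54 (SE 0.08000). In the striatum WT libraries had 95.8 to 124 CPM and KO libraries 80.1 to 97.9 CPM on the normal diet, and 98.1 to 115 and 77.3 to 88.1 CPM on the lacking diet. The log2 fold changes of -0.34 (SE 0.0717) and -0.30 (SE 0.0715) were not called by edgeR, while DESeq2 and limma on log2(RPKM + 1) called both. In the hippocampus the log2 fold changes were -0.34 (SE 0.0749) and -0.11 (SE 0.0747), not called by edgeR; DESeq2 called the value on the normal diet. Without the libraries high in Ttr they were -0.46 (SE 0.0873) and -0.07 (SE 0.0814). Whether the regions differ in this was not tested. The summed level of 6 astrocyte markers also lay lower in KO prefrontal cortex, at 1865 to 2479 CPM in WT and 1674 to 2105 CPM in KO libraries, although 0 of the 6 were called there on either diet; their part in the Pla2g7 values was not tested. In bulk tissue, fewer cells of a type and less RNA per cell cannot be told apart. Of the 75-base stretches of Pla2g7, 5.12 percent occurred in an antisense transcript.

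Slc22a3, the most distant of the 6, lies at 12418960 to 12507704 on the minus strand, 18.1 Mb before Glo1, and had opposite signs in 2 regions. In the striatum on the normal diet WT libraries had 8.19, 9.28, 10.9, 12.7 and 13.8 CPM and KO libraries 18.6, 19.9, 21.4, 21.8 and 24.3 CPM. On the lacking diet WT libraries had 10.9, 11.4, 13.2, 13.3 and 18.4 CPM and KO libraries 21.1, 23.2, 23.7, 23.8 and 28.1 CPM. Every KO library was above every WT library, with log2 fold changes of 0.97 (SE 0.149) and 0.89 (SE 0.144). Prefrontal WT libraries on the normal diet had 1.06, 1.75, 1.76, 1.77 and 1.900 CPM and KO libraries 0.792, 0.835, 1.15, 1.39 and 2.300 CPM, and on the lacking diet WT libraries had 1.26, 1.47, 1.72, 2.12 and 2.18 CPM and KO libraries 0.0864, 1.38, 1.46, 1.53 and 2.42 CPM. These groups overlapped, at 1 to 30 counts per library, and the log2 fold changes of -0.31 (SE 0.387) and -0.39 (SE 0.385) were smaller than their standard errors or close to them. The hippocampus held 0 to 7 counts of Slc22a3 in WT libraries and 1 to 14 in KO libraries, so a fold change is not given there, and the difference in the KO against WT value between regions was not tested. Plg overlaps Slc22a3 on the opposite strand over 9.31 percent of its exonic bases and had 21 counts over all libraries, against 4212 for Slc22a3.

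**Figure D2:**
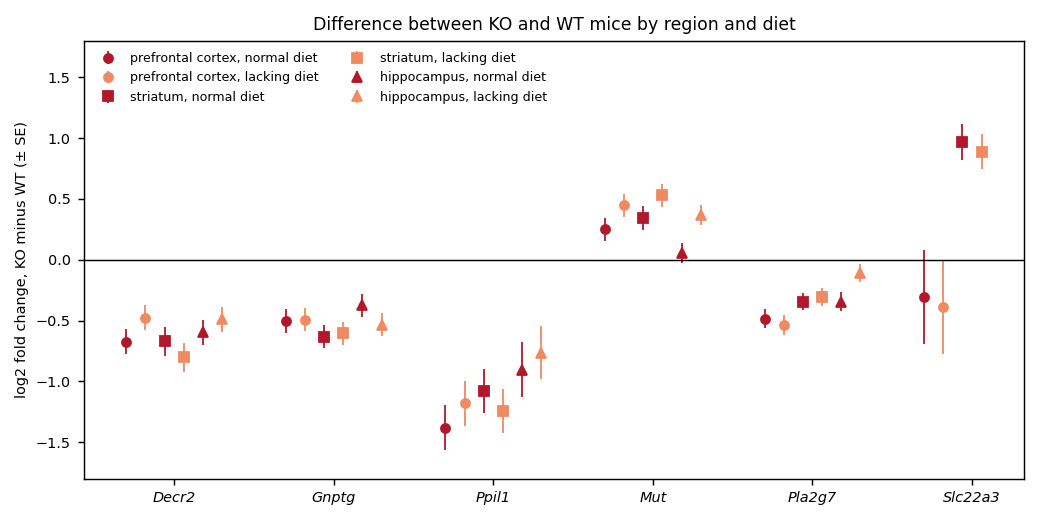
Log2 fold change of KO against WT for each of the 6 genes, by region (symbol) and diet (colour), with bars of 1 standard error from the edgeR fit; Slc22a3 has no hippocampal value. Ppil1 lies lowest, from -1.38 to -0.76, Mut is the only gene with 6 values above 0, and the Slc22a3 values lie on either side of 0.

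The members span 31.2 Mb of chromosome 17. Of 144 KO against WT values of the 26 tested genes nearest to the members on either side, 0 were called and 25 were at an unadjusted p under 0.05 (lowest adjusted p 0.0974; edgeR, BH). Over all genes tested, 0.0299 to 0.234 percent were called in the 6 comparisons, and 2.43 to 12.4 percent were at an unadjusted p under 0.05. The nearest tested genes were not always close, with Gabbr1 3860 kb before Mut. The size of these values varied, and some were larger than those of the member concerned. Tdrd6, 3.13 kb after Pla2g7, was at 1.29 in the prefrontal cortex and 1.29 in the hippocampus on the normal diet. Pla2g7 was at -0.48 and -0.34 there. Adgrf4, which lies 1695 kb after Mut and beyond Ptchd4, was at -0.98 and -1.33 in the prefrontal cortex on the normal and lacking diets. Mut was at 0.25 and 0.45 there. These neighbours were singled out after their values were seen. Between the outermost members, leaving these and Glo1 out, 6 of 330 genes were called in the prefrontal cortex, 3 of 335 in the striatum and 2 of 326 in the hippocampus on the normal diet, and 10, 8 and 3 on the lacking diet. Elsewhere on chromosome 17 the counts were 4 of 260, 0 of 270 and 0 of 266 on the normal diet and 5, 3 and 4 on the lacking diet. On the other chromosomes they were 1 of 12338, 0 of 12403 and 0 of 12495 on the normal diet and 10, 0 and 0 on the lacking diet.

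**Figure D3:**
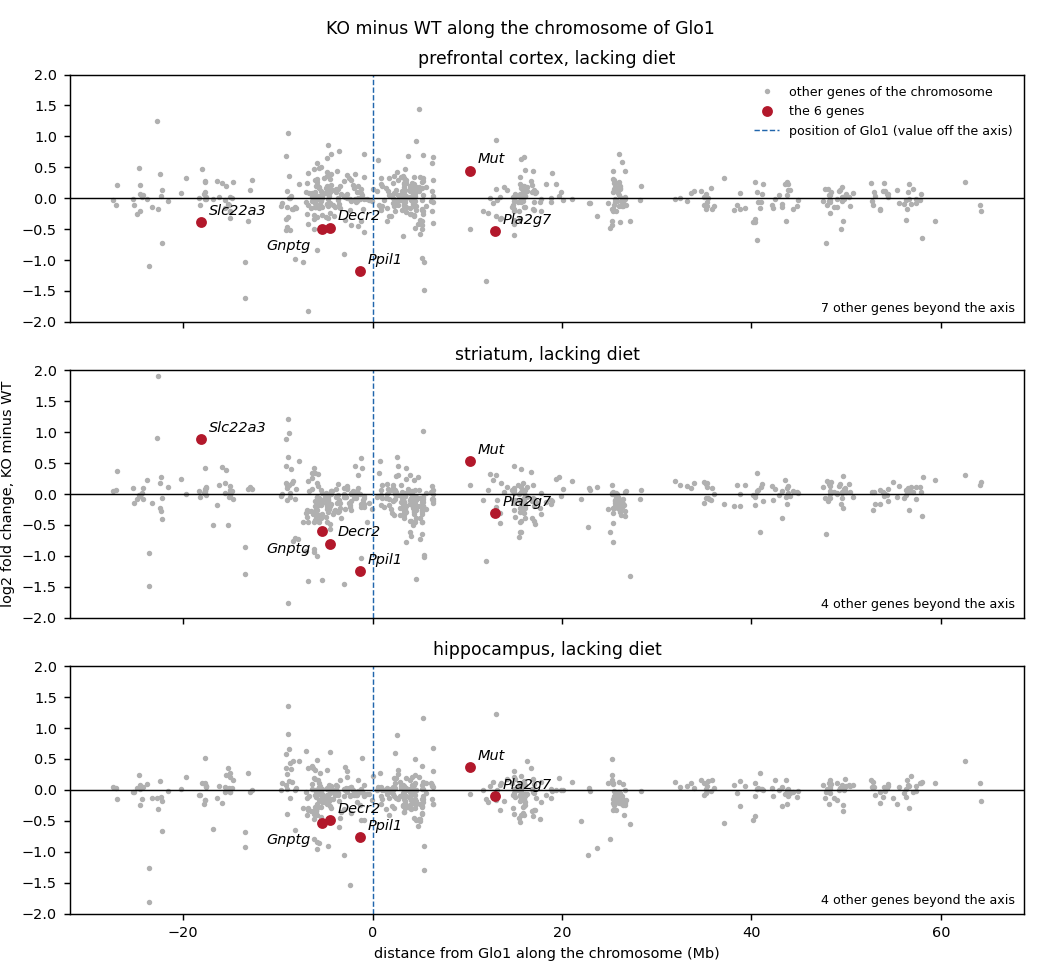
Log2 fold change of KO against WT on the lacking diet for the genes of chromosome 17, by distance from Glo1 in megabases (negative before Glo1), in the 3 regions; red points are the members and grey points all other tested genes, with 7, 4 and 4 genes beyond the axis of 2 in either direction. Ppil1, Decr2 and Gnptg lie below 0 within 5.34 Mb before Glo1, and Mut lies above 0 at 10.3 Mb after it.

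Diet had no detected effect on the members. The effect of the lacking diet, tested within each genotype and hence within a batch, is a contrast that the choice of the genes did not use, although it comes from the same libraries. Of 34 values 0 were called by edgeR, DESeq2 or limma, and the lowest adjusted p was 0.721 (edgeR, BH). Over all genes, 0 percent were called for the diet in WT mice and 0 percent in KO mice in each of the 3 regions, by all 3 tools. At an unadjusted p under 0.05 edgeR gave 300, 387 and 540 genes in WT and 686, 224 and 878 in KO mice, in the prefrontal cortex, striatum and hippocampus. The 95 percent intervals of the log2 fold changes, over the regions and genotypes, lay within -0.35 to 0.32 for Decr2, -0.28 to 0.27 for Gnptg, -0.36 to 0.34 for Mut and -0.39 to 0.16 for Pla2g7. They were wider for the genes with lower counts, within -0.61 to 0.65 for Ppil1 and -0.77 to 0.89 for Slc22a3. These bounds join the regions and genotypes, and the interval of a single one can be narrower. Changes inside an interval remained compatible with the data.

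The lowest adjusted p was that of Mut in the hippocampus of KO mice, and 2 values were at an unadjusted p under 0.05, those of Pla2g7 and Mut in the hippocampus of WT mice. Pla2g7 was at 185, 205, 211, 241 and 248 CPM on the normal and 172, 179.9, 194, 194 and 199 CPM on the lacking diet, with a log2 fold change of -0.23 (95 percent interval -0.39 to -0.08, unadjusted p 0.00444, adjusted p 0.965; edgeR, BH). In KO mice it was at 158, 170.0, 179.8, 180.3 and 189 CPM and 161, 167, 171, 175 and 177 CPM, with a value of 0.00. The diet groups of Pla2g7 overlapped in both genotypes. For Mut, whose hippocampal values are listed above, the WT diet groups did not overlap, and the log2 fold change was -0.18 (interval -0.36 to -0.01, unadjusted p 0.03802, adjusted p 0.965; edgeR, BH). In KO mice Mut had the opposite sign, at 0.13 (interval -0.05 to 0.30). Without the libraries high in Ttr the Pla2g7 value in WT mice was -0.36 and that of Mut -0.16, not called, and that of Ppil1 went from 0.03 to 0.33, not called.

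The interaction asks whether the difference between genotypes depended on diet. It was called for 0 of 17 member values, and for 0 percent of all genes in the prefrontal cortex, 0 percent in the striatum and 0 percent in the hippocampus, by edgeR, DESeq2 and limma. At an unadjusted p under 0.05 edgeR gave 419, 226 and 1265 genes in these regions, and 2 member values, both in the hippocampus. These were Mut, with an interaction of 0.31 on the log2 scale (interval 0.07 to 0.56, adjusted p 0.514; edgeR, BH), and Pla2g7, with 0.24 (interval 0.02 to 0.45, adjusted p 0.516). For Mut the interaction had a positive sign in all 3 regions, with 0.19 for the striatum and 0.20 for the prefrontal cortex, neither called. The separation of the Mut groups on the lacking diet and their overlap on the normal diet was thus not shown to be a difference between diets. For the other members the interaction ranged from -0.13 to 0.20 for Decr2, -0.16 to 0.20 for Ppil1, -0.16 to 0.03 for Gnptg and was -0.08 for Slc22a3 in both regions tested. Without the libraries high in Ttr the hippocampal interaction was 0.39 for Mut (SE 0.156, adjusted p 0.263), 0.39 for Pla2g7 (SE 0.120, adjusted p 0.222; edgeR, BH) and -0.28 for Ppil1, which had been 0.14, and that of Decr2 went from 0.11 to -0.01; none was called.

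**Figure D4:**
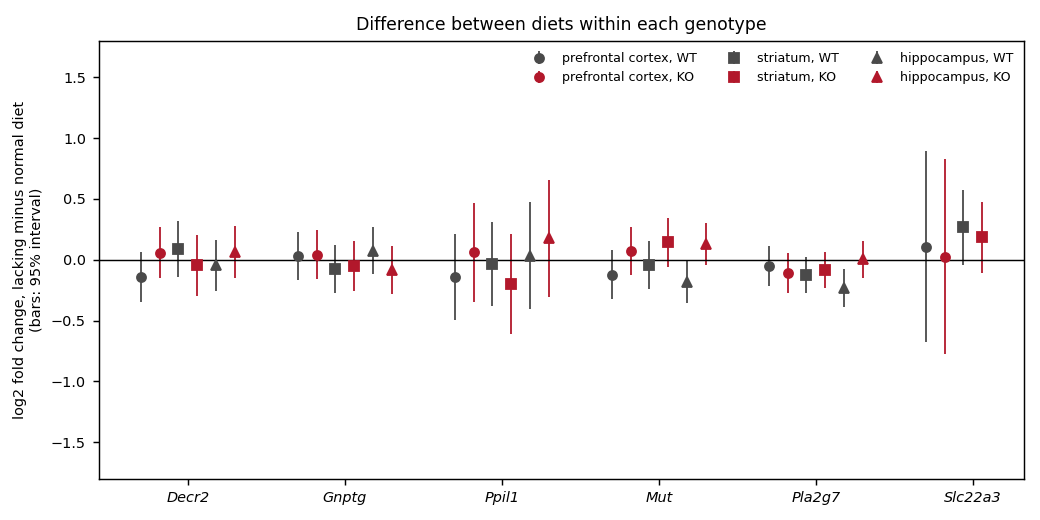
Log2 fold change of the lacking against the normal diet for each of the 6 genes, by region (symbol) and genotype (colour), with bars of the 95 percent interval from the edgeR fit. Point values lie between -0.23 and 0.27, and all intervals include 0 except those of Mut and Pla2g7 in the hippocampus of WT mice.

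Levels by region were compared in WT mice, a contrast that the choice of the genes did not use, although it comes from the same libraries. Per gene length, in the RPKM values the authors deposited, Pla2g7 was the most abundant member in the WT prefrontal cortex at 43.9 ± 4.32 RPKM (SD, n = 10), followed by Mut at 14.97 ± 2.02, Gnptg at 14.2 ± 1.49, Decr2 at 12.1 ± 1.57, Ppil1 at 3.39 ± 0.536 and Slc22a3 at 0.485 ± 0.101. Mut and Gnptg differed there by less than the SD of either and formed no order. In the striatum Decr2 (7.01 ± 0.829 RPKM) lay well below Gnptg (15.8 ± 1.15), and Ppil1 (3.26 ± 0.585) and Slc22a3 (3.49 ± 0.809) were level within their SD. In the hippocampus Slc22a3 was at 0.125 ± 0.0672 RPKM and Pla2g7 at 69.8 ± 8.52 RPKM.

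**Figure D5:**
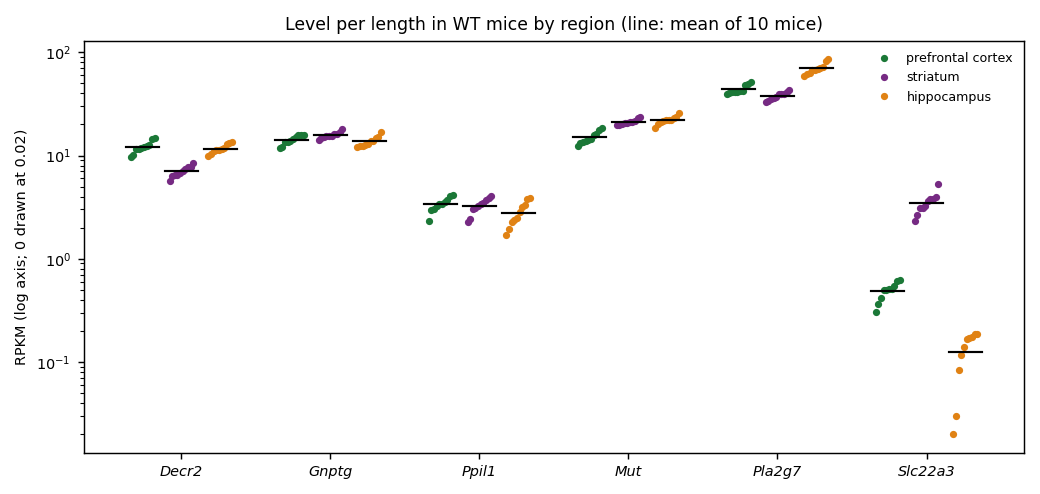
Level per gene length (RPKM, log axis) of the 6 genes in WT mice by region; each point is 1 library, and the line is the mean of 10 mice on both diets. Slc22a3 has a mean of 3.49 RPKM in the striatum and 0.125 RPKM in the hippocampus, while the libraries of Ppil1 and Gnptg overlap between regions.

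Slc22a3 was the member with the strongest regional pattern. Its lowest, median and highest levels in WT libraries were 1.06, 1.76 and 2.18 CPM in the prefrontal cortex, 8.19, 12.1 and 18.4 CPM in the striatum and 0, 0.539 and 0.658 CPM in the hippocampus, and the regions did not overlap. The log2 difference was 2.83 (SE 0.198) for striatum against prefrontal cortex (adjusted p 2.28e-19), -2.04 (SE 0.315) for hippocampus against prefrontal cortex (adjusted p 1.50e-07) and -4.87 (SE 0.247) for hippocampus against striatum (adjusted p 8.82e-26; edgeR, BH). Hippocampal libraries held 0 to 7 counts, so the size of the last 2 values depends on the prior count; on log2(RPKM + 1), which compresses low values, they were smaller, at -0.40 and -1.98. In KO mice Slc22a3 was again highest in the striatum, with 1.33 ± 0.692, 22.6 ± 2.64 and 0.715 ± 0.427 CPM (SD, n = 10) in the prefrontal cortex, striatum and hippocampus, and the libraries of prefrontal cortex and hippocampus overlapped.

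Pla2g7 was highest in the hippocampus. Its lowest, median and highest WT levels were 116, 122 and 151 CPM in the prefrontal cortex, 95.8, 111 and 124 CPM in the striatum and 172, 197 and 248 CPM in the hippocampus. All hippocampal libraries were above all others; the level exceeded that of the prefrontal cortex by 0.60 (SE 0.0522) (adjusted p 2.97e-15) and that of the striatum by 0.82 (SE 0.0524) (adjusted p 2.96e-21; edgeR, BH). The striatum was lower than the prefrontal cortex by a small amount (-0.22 (SE 0.0524), adjusted p 0.000207; edgeR, BH), with overlapping libraries. The 6 astrocyte markers had the same order of summed levels in WT mice, at 1510 to 1902 CPM in the striatum, 1865 to 2479 in the prefrontal cortex and 2346 to 2791 in the hippocampus; their part in the regional values was not tested.

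Decr2 was lowest in the striatum, with 12.97, 15.8 and 19.3 CPM (lowest, median and highest WT library) against 22.2, 27.5 and 33.5 CPM in the prefrontal cortex and 22.9, 26.3 and 30.8 CPM in the hippocampus. Striatal libraries did not overlap those of the other regions, and the log2 difference was -0.79 (SE 0.0716) to the prefrontal cortex (adjusted p 6.99e-15; edgeR, BH), with the hippocampus higher than the striatum by 0.68 (SE 0.0715) (adjusted p 1.74e-12). Hippocampus and prefrontal cortex were not shown to differ (-0.11, interval -0.25 to 0.03, adjusted p 0.184; edgeR, BH). Mut had the reverse standing of the cortex: its WT levels were 45.2, 52.4 and 68.3 CPM in the prefrontal cortex, 72.1, 77.03 and 86.5 CPM in the striatum and 68.1, 80.7 and 95.5 CPM in the hippocampus. It exceeded the cortical level by 0.49 (SE 0.0683) in the striatum (adjusted p 5.97e-09) and by 0.49 (SE 0.0683) in the hippocampus (adjusted p 1.26e-08; edgeR, BH). Striatal libraries lay apart from the cortical ones, and hippocampal libraries overlapped them slightly. Between hippocampus and striatum the interval of the Mut difference was -0.14 to 0.13.

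Ppil1 and Gnptg varied least between regions. Ppil1 WT levels were 5.05, 7.35 and 8.899 CPM in the prefrontal cortex, 4.94, 7.14 and 8.82 CPM in the striatum and 3.68, 5.79 and 8.42 CPM in the hippocampus, with overlapping libraries throughout. The hippocampus was lower than the prefrontal cortex by a called log2 difference of -0.34 (SE 0.1299) (adjusted p 0.02400, edgeR, BH). This call was kept in 5 of 9 alternatives (adjusted p from 0.00917 to 0.0756). Among the others were the fits without the libraries high in Ttr (adjusted p 0.0647) and with RNA integrity as a covariate (adjusted p 0.0756, both edgeR, BH). The call was also lost on leaving out the hippocampal library of mouse 246, 273 or 317. The difference between hippocampus and striatum was -0.29 (SE 0.129) (adjusted p 0.0519) and was called with the mouse as a replicate block (-0.31, SE 0.117, adjusted p 0.0244; edgeR, BH), as it was in 6 of 20 fits that left out 1 library (striatal mice 259 and 317 and hippocampal mice 241, 259, 272 and 286). Striatum and prefrontal cortex differed by -0.05 (interval -0.31 to 0.20). For Gnptg the striatum, at 31.5, 35.03 and 40.6 CPM, was above the hippocampus, at 27.3, 30.2 and 37.8 CPM (-0.26 (SE 0.0636) for hippocampus against striatum, adjusted p 0.000318; edgeR, BH). It was above the prefrontal cortex, at 26.5, 31.9 and 35.9 CPM, by 0.15 (SE 0.0636) (adjusted p 0.0374; edgeR, BH), a call that was lost in 9 of 20 fits that left out 1 library (cortical mice 225, 241, 273, 286 and 317 and striatal mice 225, 259, 273 and 283). Gnptg in the hippocampus was not called against the prefrontal cortex (-0.11 (SE 0.0641), adjusted p 0.142; edgeR, BH), and was called without the libraries high in Ttr (-0.20, SE 0.0732, adjusted p 0.0215).

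In all, 5 of 6 members were called between striatum and prefrontal cortex, where 58.8 percent of all 13930 genes tested were called, 4 of 6 between hippocampus and prefrontal cortex (47.3 percent of all genes) and 4 of 6 between hippocampus and striatum (54.5 percent). With only 6 members, neither a likeness to all genes nor a difference from them is read from these counts.

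Other genes of the members' pathways, in 6 lists of 121 genes, gave 1 call with genotype and 0 with diet. Over the 6 KO against WT comparisons the 1 called gene was Cat, the peroxisomal catalase, which was lower in the prefrontal cortex of KO mice on the lacking diet (-0.50, SE 0.104, adjusted p 0.0269; 83.6 against 116 CPM; edgeR, BH). It belongs to the list of 22 genes of peroxisomal fatty acid oxidation around Decr2, of which 20 were tested. The list medians of the KO against WT log2 fold change in the 6 comparisons ranged from -0.06 to 0.12 for this list, from -0.05 to 0.03 for 19 genes of propionate and vitamin B12 metabolism around Mut, and from -0.05 to 0.06 for 22 genes of spliceosomal cyclophilins and the Prp19 complex around Ppil1. They ranged from -0.09 to 0.07 for 23 genes of mannose 6-phosphate sorting and lysosomal hydrolases around Gnptg, from -0.04 to 0.16 for 19 genes of platelet-activating factor and phospholipases around Pla2g7, and from -0.09 to 0.08 for 16 transporters and enzymes of monoamines around Slc22a3. The medians over all genes tested were 0.00 or -0.00 in each of these comparisons. At an unadjusted p under 0.05 there were 0 to 6 genes per list and comparison, the most being 6 of 22 around Ppil1 and 5 of 20 around Decr2 in the prefrontal cortex on the lacking diet. For diet and for the interaction 0 listed genes were called by edgeR, with 0 to 4 per list and comparison at an unadjusted p under 0.05. The interaction medians farthest from 0 were in the hippocampus, at -0.20 for the list around Gnptg and -0.22 for that around Slc22a3, against -0.01 over all genes.

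Between regions of WT mice listed genes were called in each list, beside 58.8 percent of all genes between striatum and prefrontal cortex and 54.5 percent between hippocampus and striatum. By direction, 4142 of all 13930 genes were called higher and 4049 lower in the striatum than in the prefrontal cortex. Between hippocampus and striatum 3856 were called higher and 3732 lower in the hippocampus. The list counts below are a description, and no difference from all genes is read from them. In the list around Slc22a3, 6 of 12 tested genes were higher in the hippocampus than in the striatum, with a list median of 0.28 against -0.00 over all genes. Slc29a4, the plasma membrane monoamine transporter, was higher there by 3.12 (SE 0.193, adjusted p 8.79e-22; 9.25 against 1.02 CPM; edgeR, BH), the opposite direction to Slc22a3. In the list around Decr2, 9 of 20 genes were higher and 5 lower in the striatum than in the prefrontal cortex. Phyh, which starts the oxidation of phytanic acid, was lower in the striatum like Decr2 (-0.89, SE 0.0528, adjusted p 1.52e-22), while Abcd3, a peroxisomal fatty acid transporter, was higher (0.36, adjusted p 4.44e-08; edgeR, BH). In the list around Ppil1, 9 of 22 genes were higher and 0 lower in the striatum than in the prefrontal cortex, where Ppil1 itself was not called; Snw1, the spliceosome protein that binds PPIL1, was higher by 0.50 (SE 0.0622, adjusted p 3.88e-10; edgeR, BH). Around Mut, 5 of 19 genes were higher and 0 lower in the striatum than in the prefrontal cortex, among them Mtr, the other vitamin B12-dependent enzyme (0.63, SE 0.0840, adjusted p 2.27e-09; edgeR, BH).

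The genes most like each member were taken from 12842 genes by the Pearson correlation of log2 CPM over the 12 group means, as a description over means that share libraries. Since the members were chosen for a difference between KO and WT mice, a high correlation with Glo1 or with other genes that differ by genotype follows in part from the choice. Ppil1 and Gnptg had the same nearest genes, Rps2, a ribosomal protein gene also on chromosome 17 (r 0.964 and 0.981), and Glo1 itself (r 0.962 and 0.953). Pla2g7 was nearest to Prelp, a proteoglycan gene (r 0.975), and Cldn10, a claudin (r 0.969). Slc22a3 was nearest to the cell adhesion gene Alcam and to Adam23 (r 0.988 each). Decr2 was nearest to Zfp395 (r 0.931) and Rassf2 (r 0.930), and Mut to Ints6 (r 0.931) and Kbtbd8 (r 0.928). The nearest genes of these 4 members lay on other chromosomes.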

How the data were processed

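The authors deposited read counts per gene and RPKM values (reads scaled to gene length and library size). Poly(A) RNA was sequenced with single 75-base reads, per the labels' protocols, and STAR 2.7.1a, HTSeq 0.9.1 and mm10 were used, per the submitters' processing notes. The strand setting of the counting was not given in the sources used here.

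Deposited counts were fitted per region over its 20 libraries with edgeR 4.0.16 (R 4.3.3, quasi-likelihood test, TMM factors, filterByExpr with a minimum of 10 counts). The comparisons of regions were contrasts of the WT groups in a fit over all 60 libraries, KO libraries included. BH adjustment was over all genes, with a threshold of 0.05. CPM used library totals. DESeq2 1.42.0, limma 3.58.1 on log2(RPKM + 1), other filters and covariates, the mouse as replicate block and leaving out each library were alternatives; leaving out the libraries above 300 CPM of Ttr was chosen after seeing the data. The scripts were tested on simulated data. The members and gene lists were chosen with earlier results of these data known. All 6 members were named; listed genes were named from those called (the result of 1 is not reported here), and the 2 most correlated genes per member were named. The labels give a mouse number shared by the 3 libraries of 1 mouse, which pairs regions; residuals of the same mouse correlated at 0.0336 to 0.0705 on average.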

Additional observations from a re-analysis of the deposited data

Results flagged for a closer look

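Within groups of 5 libraries, 3 of 70 groups of the members had 1 library far from the others. This was measured as its gap to the nearest library divided by the group's range, against a critical value of 0.71. Chance gives about 1 in 20 such groups. Ppil1 was at 1.99 CPM in the hippocampus of KO mouse 267 on the normal diet and at 3.30 to 3.72 CPM in the other mice of the group (gap 0.761); the hippocampal library of this mouse was among those high in Ttr. Pla2g7 was at 140.3 CPM in the prefrontal cortex of WT mouse 225 on the lacking diet and at 118 to 124 CPM in the others (gap 0.746). Slc22a3 was at 1.06 CPM in the prefrontal cortex of WT mouse 317 on the normal diet and at 1.75 to 1.90 CPM in the others (gap 0.821).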

How the results depend on the processing

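No called value of a member turned sign in the alternatives run. The larger moves in the counts of called members are given below, and smaller ones are not all listed. RNA integrity as a covariate gave 3 in the striatum on the normal diet (4), where Decr2 was no longer called (adjusted p 0.0523, edgeR, BH). It gave 3 between hippocampus and prefrontal cortex (4). Over the alternatives the count was 3 to 4 in the prefrontal cortex on the normal diet and reached 6 in the striatum on the lacking diet. In the prefrontal cortex on the lacking diet (5) the count was 3 without TMM factors, 2 with limma and 3 when the compared groups were fitted alone. In the striatum it was 2 with those groups alone on the normal diet (4), and 1 with RNA integrity as a covariate on the lacking diet (5), where the mean RNA integrity number was 8.14 in WT and 8.64 in KO libraries. In the hippocampus (1 on each diet) it was 2 on the normal and 3 on the lacking diet with DESeq2, 2 on the lacking diet without TMM factors or with limma, and 0 on each diet with the compared groups alone or without the libraries high in Ttr, fits with fewer libraries. The cause of these moves was not tested.

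Leaving out 1 library gave 2 to 5 calls in the prefrontal cortex on the lacking diet: 3 without WT mouse 225 or KO mouse 244 or 325, and 2 without WT mouse 246 or 259 or KO mouse 242 or 452. On the normal diet it gave 3 to 4. The striatum gave 3 to 5 and 4 to 5 on the normal and lacking diets. The hippocampus gave 0 to 1 on the normal diet (0 without KO mouse 268, 368 or 381 or WT mouse 283) and 0 to 2 on the lacking diet (0 without WT mouse 225 or 246 or KO mouse 325 or 452; 2 without WT mouse 241). Between regions it gave 4 to 5, 3 to 4 and 4 to 5, and 0 for diet and interaction. With the mouse as replicate block the regional counts were 5, 4 and 5, and the call for Ppil1 between hippocampus and striatum was the only one to change. Counts of 100 or fewer per library limit Ppil1, and Slc22a3 outside the striatum.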
